A study of Mus musculus with 15 samples.

Results

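Collagens are the proteins of the extracellular fibrils, networks and filaments that surround and anchor cells, and each is built from chains encoded by separate genes. All gene symbols made of Col, a type number, the letter a and a chain number were taken, which gave 44 of 21886 genes in a table of RPKM values (reads scaled to gene length and library size) and 33 of 14301 genes in a separate table of counts. By the form their products take, 11 of the 44 were grouped as fibrillar, 6 as basement membrane, 4 as transmembrane and 23 as others.

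The cells were prostate epithelial cells of C57BL/6 mice grown as organoids, and their RNA was sequenced as paired reads of 150 nucleotides. The RPKM table held 4 groups from 3-month-old mice, all PtenPC+/-, with 2 libraries each. They were double null (PtenPC+/-;Setd2PC-/-;Ezh2PC-/-), Ezh2 null (PtenPC+/-;Ezh2PC-/-), Setd2 null (PtenPC+/-;Setd2PC-/-) and control (PtenPC+/-). RNA of 3 biological replicates was pooled in equal mass for each of these libraries, so p-values measure the spread between pools and not between animals. The count table held Ezh2 K735R (PtenPC-/-;Ezh2K735R) and wild-type Ezh2 (PtenPC-/-) cells from 2-month-old mice, also with 2 libraries each and with no pool size in the labels. In K735R a lysine of Ezh2 is replaced by arginine. No expansion of PC and no Cre driver is given in the labels, and an H3K27me3 profile of the same series was not analysed here.

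Fibrillar collagens such as types I, III and V form the tensile fibrils of connective tissue and are made mainly by fibroblasts and other stromal cells. Epithelial cells make the network of type IV chains in their basement membrane, the transmembrane type XVII of hemidesmosomes and the type VII of anchoring fibrils. Ezh2 is the catalytic subunit of Polycomb repressive complex 2, which places H3K27me3, mainly at CpG-rich promoters of silent genes, and Setd2 places H3K36me3 in transcribed genes.

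Reads on listed genes, recovered from the RPKM values, numbered 29686052 to 54230805 per library, and count totals 28831228 to 37482322. The targeted Ezh2 was at 11.6 to 16.6 RPKM in the 4 libraries with Ezh2 deleted (double null and Ezh2 null), against 19.4 to 24.2 RPKM in the 4 with Ezh2 intact (Setd2 null and control). Setd2 was at 7.54 to 10.3 RPKM in the libraries with Setd2 deleted, against 11.6 to 17 RPKM in those with Setd2 intact. Each table gives 1 value per gene, so transcripts that lack deleted exons still count. How complete the deletions were in these cells was not tested. All 7 epithelial markers were detected in all 8 libraries. Epcam, Cdh1, Krt8 and Krt18 were lower in every Ezh2-deleted library, with Epcam at 291 to 329.9 RPKM with Ezh2 deleted and 1047 to 1225 RPKM with Ezh2 intact. Krt5 was higher, at 1107 to 2084 RPKM with Ezh2 deleted and 497 to 607 RPKM with Ezh2 intact, and Krt14 and Trp63 overlapped. The prostate secretory marker Pbsn was at 2.19 to 3.95 RPKM with Ezh2 deleted and at 0 in all 4 libraries with Ezh2 intact.

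A set of 4 genes made up most of the summed collagen level in every library. The type XVII, XVIII, VII and VIII genes Col17a1, Col18a1, Col7a1 and Col8a1 held 63.5% to 70.1% of the summed collagen RPKM with Ezh2 deleted and 77.6% to 80.7% with Ezh2 intact. With Ezh2 deleted Col8a1 added little, at 1.12 to 2 RPKM, and the type IV gene Col4a1, at 22.4 to 32.6 RPKM, was above both Col7a1 and Col8a1. The summed level of all 44 genes was 269 and 305 RPKM in double null, 208 and 250 RPKM in Ezh2 null, 368 and 462 RPKM in Setd2 null, and 412 and 436 RPKM in control. As a share of library reads, collagens took 0.137% to 0.197% with Ezh2 deleted and 0.246% to 0.31% with Ezh2 intact. Both measures were lower in every Ezh2-deleted library than in any Ezh2-intact one. Fibrillar genes ran the other way within this sum, with 3.4% to 9.18% of it in Ezh2-deleted and 1.05% to 1.67% in Ezh2-intact libraries.

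Of the 44 genes, 15 averaged 1 RPKM or more across the 8 libraries and were tested. The type VI gene Col6a4 lay just under this limit at 0.979 RPKM and the type V gene Col5a3 just over it at 1.04 RPKM. Of the 29 not tested, 18 never exceeded 0.5 RPKM, and Col13a1 and Col9a1 were at 0 in all 8 libraries. The type I and III genes Col1a1, Col1a2 and Col3a1 passed only through the Ezh2-deleted libraries, and Col5a3 and the type XXVII gene Col27a1 only through the Ezh2-intact ones. These 5 therefore had to differ, so their values and changes with Ezh2 deletion below are a description. The counts below describe the genes that passed and not the whole family.

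Ezh2 null against control had 12 of the 15 called by limma at an adjusted p under 0.05, 3 higher and 9 lower, where 56.6% of all 11338 genes tested were called, 36.1% higher and 20.5% lower. The median log2 fold change was −0.45 over the 15 and 0.18 over all genes. Double null against Setd2 null, which shares no library with it, had 12 called, 4 higher and 8 lower, where 55% of all genes were called, 35.6% higher and 19.4% lower. Here the median was −0.39 over the 15 and again 0.18 over all genes. Both comparisons come from 1 fit with a shared spread. Same-numbered Ezh2 null and double null libraries also deviated together from their group means (correlation 0.93). Over both pairs together, the 4 Ezh2-deleted libraries lay above the 4 intact ones for 3 of the 15 (39.2% of all genes tested) and below them for 9 (21.6%). Quantile normalization brought the median over all genes in Ezh2 null against control to 0.01 and added 3 lower calls there, Col4a1, Col16a1 and Col17a1, to give 3 higher and 12 lower.

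**Figure D1:**
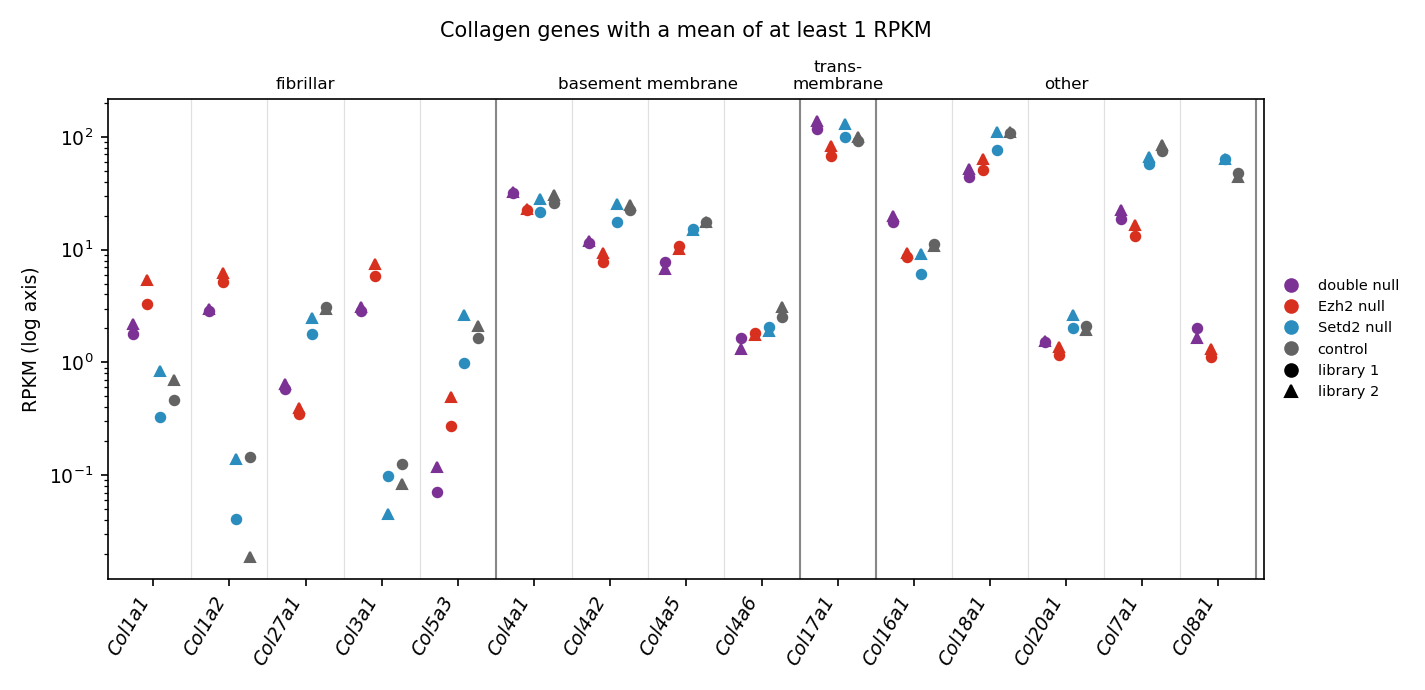
RPKM (log axis) of the 15 tested collagen genes in each library, ordered by structural group and, within a gene, as double null, Ezh2 null, Setd2 null and control. Col1a1, Col1a2 and Col3a1 sit higher in the 4 Ezh2-deleted libraries, and Col7a1 and Col8a1 lower.

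Among fibrillar genes, those of types I and III were higher and those of types V (chain a3) and XXVII lower in both comparisons that delete Ezh2. Col3a1, the single chain of type III collagen, was at 2.88 and 3.08 RPKM in double null, 5.83 and 7.44 RPKM in Ezh2 null, 0.098 and 0.0453 RPKM in Setd2 null, and 0.125 and 0.0827 RPKM in control. Col1a2, which encodes the second chain of type I, was at 2.87 and 2.98 RPKM in double null, 5.14 and 6.26 RPKM in Ezh2 null, 0.0406 and 0.14 RPKM in Setd2 null, and 0.145 and 0.0189 RPKM in control. For both genes every Ezh2-deleted library was above every Ezh2-intact one, and the Ezh2 null libraries were the highest of the 8. In reads, Col1a2 had 744 to 1555 per Ezh2-deleted library and 3 to 26 per Ezh2-intact library. Col1a1, the major type I chain, was at 1.79 and 2.19 RPKM in double null, 3.29 and 5.33 RPKM in Ezh2 null, 0.327 and 0.836 RPKM in Setd2 null, and 0.467 and 0.704 RPKM in control. The groups with and without Ezh2 again did not overlap.

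All log2 changes below compare log2(RPKM + 1), and the 1 that is added shrinks changes at low levels. For genes that had to differ through the filter, changes with Ezh2 deletion are given without p-values. Col3a1 rose in Ezh2 null against control by 2.78 ± 0.133 (SE). It also rose in double null against Setd2 null (log2 change 1.89 ± 0.133). Col1a2 rose by a log2 fold change of 2.63 in Ezh2 null against control and 1.85 in double null against Setd2 null. The rise of Col1a1 was smaller, at a log2 fold change of 1.72 ± 0.212 in Ezh2 null against control and 0.93 in double null against Setd2 null. After quantile normalization the second of these Col1a1 values was 0.59 and not called. The ratio of the Col1a1 to the Col1a2 level was 0.624 to 0.852 in Ezh2-deleted libraries and 3.22 to 37.3 in Ezh2-intact ones, where few Col1a2 reads make it imprecise.

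The stretches of 250 bases before the start of Col1a2 and Col3a1 show how unlike in base composition the upstream sequences of these co-moving genes are. Both come from RefSeq on GRCm38.p6 and are plus-strand, Col1a2 at chr6:4505368-4505617 and Col3a1 at chr1:45311288-45311537. Capitals mark matches on either strand. The motif CCAAT has a match in 33.8% of the 32851 windows of this length in the RefSeq table. The GC box, searched as GGGCGG, has one in 32.7%. The TATA box, searched as TATAAA, has one in 12.4%.
Col1a2: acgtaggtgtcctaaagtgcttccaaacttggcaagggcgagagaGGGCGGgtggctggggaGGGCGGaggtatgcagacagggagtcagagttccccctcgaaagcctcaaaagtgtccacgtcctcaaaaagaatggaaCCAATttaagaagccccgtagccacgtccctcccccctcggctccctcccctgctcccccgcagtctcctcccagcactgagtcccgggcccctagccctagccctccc
Col3a1: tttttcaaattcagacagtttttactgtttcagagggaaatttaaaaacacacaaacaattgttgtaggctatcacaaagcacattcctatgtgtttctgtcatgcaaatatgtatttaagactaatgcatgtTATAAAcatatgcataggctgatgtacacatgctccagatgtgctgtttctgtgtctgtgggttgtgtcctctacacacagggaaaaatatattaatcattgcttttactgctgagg
The Col1a2 stretch holds 11 CpG dinucleotides and 62% G and C, and the Col3a1 stretch 0 CpG and 35.2%, while the median window in the table holds 6 CpG (quartiles 2 and 16). The Col1a2 stretch has 1 CCAAT and 2 GC box matches, and the Col3a1 stretch has 1 TATA box match. Matches were counted anywhere in a stretch, and whether they work as promoter elements was not tested. RefSeq windows were found for 35 of the 44 genes.

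Col27a1, a fibrillar collagen best known from cartilage, was at 0.578 and 0.637 RPKM in double null, 0.345 and 0.397 RPKM in Ezh2 null, 1.8 and 2.45 RPKM in Setd2 null, and 3.1 and 2.96 RPKM in control. It fell in Ezh2 null against control (log2 change −1.56) and in double null against Setd2 null (−0.95). Col5a3, a minor type V chain, was at 0.0702 and 0.119 RPKM in double null, 0.27 and 0.498 RPKM in Ezh2 null, 0.979 and 2.64 RPKM in Setd2 null, and 1.65 and 2.12 RPKM in control. All its Ezh2-deleted libraries were lower than its Ezh2-intact ones. Its log2 fold change was −1.06 in Ezh2 null against control and −1.29 in double null against Setd2 null, the second of which was −0.85 without Setd2 null 2. The other type V chains ran the opposite way at low levels. Col5a1 was at 0.419 to 1.19 RPKM in Ezh2-deleted and 0.0321 to 0.193 RPKM in Ezh2-intact libraries, and Col5a2 at 0.371 to 1.1 RPKM and 0.0848 to 0.278 RPKM.

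Markers of stroma, the usual source of types I and III, were read beside these genes. The summed level of the 8 listed stromal markers was 43.9 to 50.5 RPKM in double null, 32 to 41.9 RPKM in Ezh2 null, 110.3 to 116 RPKM in Setd2 null and 95.5 to 98.2 RPKM in control. Pdpn was its largest member in the Ezh2-intact libraries and Ezh2 null 2, and Dcn in the other 3. Of the 8, 4 were higher in every Ezh2-deleted library than in any Ezh2-intact one. Among all genes averaging 1 RPKM or more, 39.2% were likewise higher and 21.6% lower, and many of the listed markers lay under that limit. Dcn was at 12.6 to 25.5 RPKM with Ezh2 deleted and 0.907 to 1.3 RPKM with Ezh2 intact, Pdgfra at 0.336 to 0.482 RPKM and 0.0958 to 0.208 RPKM, and Pdgfrb at 0.168 to 0.484 RPKM and 0.0138 to 0.0597 RPKM. Lum was at 0.0304 to 0.217 RPKM with Ezh2 deleted and at 0 in all 4 Ezh2-intact libraries, while Thy1 was at or under 0.097 RPKM throughout. Postn and Pdpn ran the other way, with Postn at 0.0178 to 0.223 RPKM with Ezh2 deleted and 6 to 10.3 RPKM with Ezh2 intact. Markers of other cell types were read beside the same shares of all genes. Of 5 endothelial markers 2 were higher in every Ezh2-deleted library, Esam at 1.84 to 3.12 RPKM with Ezh2 deleted and 0.44 to 0.513 RPKM with Ezh2 intact and Vwf at 0.095 to 0.258 RPKM and 0.00668 to 0.0185 RPKM, while Pecam1, Cdh5 and Kdr were at or under 0.173 RPKM throughout. Their sum was 2.38 to 2.99 RPKM in double null, 2.02 to 3.25 RPKM in Ezh2 null, 0.538 to 0.677 RPKM in Setd2 null and 0.546 to 0.574 RPKM in control. Of 5 immune markers Lyz2 was higher, at 2.67 to 8.2 RPKM with Ezh2 deleted and 0 with Ezh2 intact, as was Ptprc, at 0.0067 to 0.0582 RPKM and 0. Cd68 was lower, at 4.24 to 11.6 RPKM with Ezh2 deleted and 21.8 to 39.5 RPKM with Ezh2 intact, and led a sum of 13.3 to 14.7 RPKM in double null, 12.3 to 12.8 RPKM in Ezh2 null, 33.1 to 39.6 RPKM in Setd2 null and 21.8 to 24.6 RPKM in control. Of 5 smooth muscle markers Des was higher, at 0.045 to 0.088 RPKM with Ezh2 deleted and 0 with Ezh2 intact, and Acta2 lower, and their sum was 0.226 to 1.71 RPKM in double null, 0.333 to 1.44 RPKM in Ezh2 null, 1.27 to 1.53 RPKM in Setd2 null and 1.09 to 3 RPKM in control. The part of these cell types in the collagen values was not tested. In bulk RNA a change in the number of cells of a type and a change in RNA per cell cannot be told apart.

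**Figure D2:**
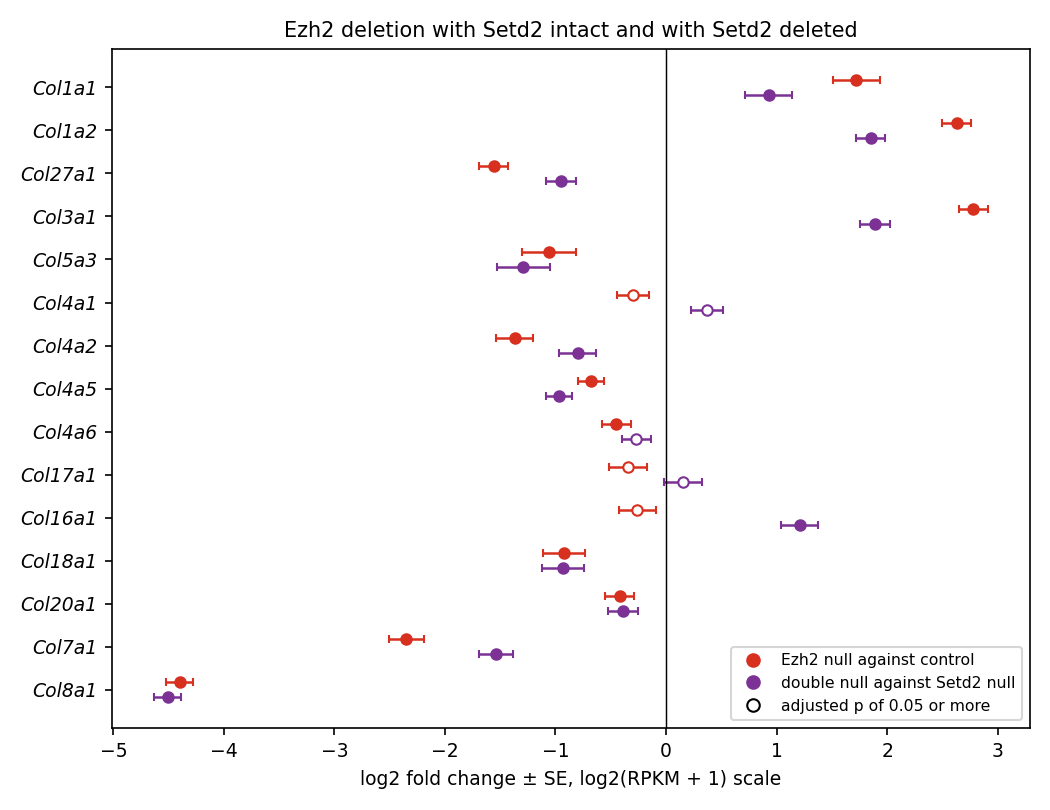
Log2 fold change ± SE on the log2(RPKM + 1) scale for the 15 tested genes in Ezh2 null against control (red) and double null against Setd2 null (purple), from limma. Filled points passed an adjusted p of 0.05, and Col8a1 lies farthest to the left in both. Col1a1, Col1a2, Col3a1, Col5a3 and Col27a1 passed the filter only through Ezh2-deleted or only through Ezh2-intact libraries and had to differ.

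Of the 6 basement membrane genes, Col4a1 to Col4a6, 4 were tested. Of these 3 fell in Ezh2 null against control, where 20.5% of all genes were lower and 36.1% higher, and 2 in double null against Setd2 null, where 19.4% were lower and 35.6% higher, and none of the 4 rose in either. Col4a1 and Col4a2 encode the chains of the most widespread type IV network. Col4a1 was at 31.7 and 32.6 RPKM in double null, 22.4 and 22.8 RPKM in Ezh2 null, 21.6 and 28.3 RPKM in Setd2 null, and 26 and 30.4 RPKM in control. Its levels with and without Ezh2 overlapped. Col4a2 was at 11.4 and 11.9 RPKM in double null, 7.83 and 9.38 RPKM in Ezh2 null, 17.5 and 25.2 RPKM in Setd2 null, and 22.6 and 25 RPKM in control. Here the groups with and without Ezh2 did not overlap. Col4a2 fell by a log2 fold change of −1.37 ± 0.17 (SE) in Ezh2 null against control (limma adjusted p = 0.00012) and −0.80 in double null against Setd2 null (0.00328).

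The log2 fold change of Col4a1 was −0.30 in Ezh2 null against control (limma adjusted p = 0.108) and 0.37 in double null against Setd2 null (0.0606), and neither passed. With the replicate number as a block both did, in opposite directions (limma adjusted p = 0.0403 and 0.0204). Without Setd2 null 2 the second was 0.56 (limma adjusted p = 0.0128), and in edgeR on recovered reads the first was −0.49 (0.0202).

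The 2 genes lie head to head on chromosome 8 and overlap by 22 bases at their starts. The ratio of the Col4a2 to the Col4a1 level was 0.358 and 0.366 in double null, 0.35 and 0.411 in Ezh2 null, 0.811 and 0.889 in Setd2 null, and 0.867 and 0.824 in control. All 4 Ezh2-deleted libraries were below all 4 Ezh2-intact ones. The log2 ratio differed by −1.19 (Ezh2 deleted minus intact), with a two-sided exact permutation p = 0.0556 within Setd2 genotype, the smallest that its 36 arrangements allow. This single ratio was chosen for a test after its values were seen. In the count table the ratio per kilobase was 0.916 and 0.942 in Ezh2 K735R and 1.03 and 0.894 in wild-type Ezh2.

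As their upstream windows, 22 bases apart, reach into each other's genes, only 30 bases around the CCAAT match of each window are shown, in the 5′ to 3′ direction of its own gene, with the match in capitals. They come from RefSeq on GRCm38.p6, Col4a1 at chr8:11312954-11312983 on the minus strand and Col4a2 at chr8:11312761-11312790 on the plus strand.
Col4a1: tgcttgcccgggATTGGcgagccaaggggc
Col4a2: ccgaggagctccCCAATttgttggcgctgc
The full windows hold 31 and 26 CpG. Whether reads were counted by strand is not given in the sources used here, so reads in the shared bases cannot be assigned with certainty.

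**Figure D3:**
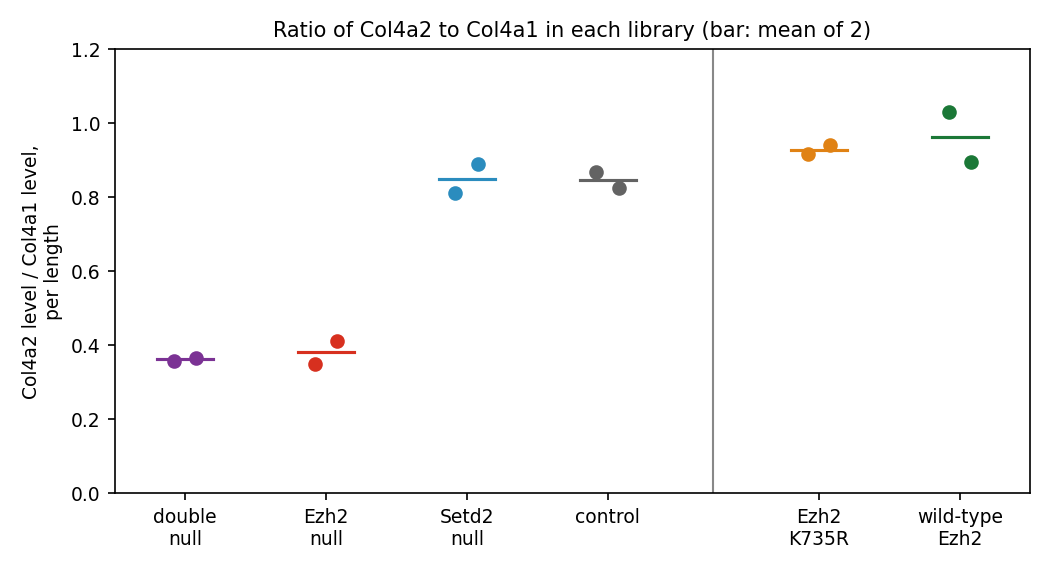
Ratio of the Col4a2 to the Col4a1 level per length in each library, with a bar at the mean of each group of 2. The ratio lay between 0.35 and 0.411 in double null and Ezh2 null and between 0.811 and 1.03 in the other groups, and the line separates the count table.

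Col4a5 and Col4a6, paired head to head on chromosome X, encode chains of another type IV network. Col4a5 was at 7.84 and 6.7 RPKM in double null, 10.8 and 10.1 RPKM in Ezh2 null, 15.3 and 15 RPKM in Setd2 null, and 17.4 and 17.5 RPKM in control. Col4a6 was at 1.66 and 1.31 RPKM in double null, 1.83 and 1.76 RPKM in Ezh2 null, 2.05 and 1.91 RPKM in Setd2 null, and 2.55 and 3.12 RPKM in control. Both were lower in each Ezh2-deleted library than in any Ezh2-intact one. Col4a5 fell in Ezh2 null against control (log2 change −0.68, limma adjusted p = 0.000941) and in double null against Setd2 null (−0.97, limma adjusted p = 0.000118). Col4a6 fell in Ezh2 null against control (log2 change −0.45, limma adjusted p = 0.0152), a call lost without control 2 (0.119) or Ezh2 null 2 (0.0659). The untested Col4a3 and Col4a4, another head-to-head pair, were at 0.0618 to 0.121 RPKM and 0.0589 to 0.111 RPKM with Ezh2 deleted and at 0.336 to 0.677 RPKM and 0.421 to 0.827 RPKM with Ezh2 intact.

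Col17a1, the transmembrane collagen that anchors basal keratinocytes through hemidesmosomes, had the highest mean level of the family, 103 RPKM over the 8 libraries. It was at 117 and 138 RPKM in double null, 67.1 and 83.4 RPKM in Ezh2 null, 100.1 and 131 RPKM in Setd2 null, and 91 and 99.1 RPKM in control. The Ezh2 null libraries were the lowest, and those with and without Ezh2 overlapped. Its log2 fold change in Ezh2 null against control was −0.34 and not called (limma adjusted p = 0.118), but was called with the replicate number as a block (0.0176), after quantile normalization (0.0402) and by edgeR on recovered reads (−0.51, adjusted p = 0.0335). In double null against Setd2 null it was 0.15 (limma adjusted p = 0.483), and −0.04 by edgeR on recovered reads. The other 3 transmembrane genes were untested and at or under 0.301 RPKM.

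Among the other collagens, those of anchoring fibrils and of a short-chain network showed the steepest falls. Col8a1, a chain of the type VIII network best known from vessel walls and the cornea, was at 2 and 1.64 RPKM in double null, 1.12 and 1.32 RPKM in Ezh2 null, 63.6 and 63.1 RPKM in Setd2 null, and 47.9 and 43.6 RPKM in control. Col7a1, the single chain of the anchoring fibrils that tie the epithelial basement membrane to the stroma, was at 18.5 and 22.5 RPKM in double null, 13.3 and 16.5 RPKM in Ezh2 null, 56.9 and 66.1 RPKM in Setd2 null, and 74.9 and 84.6 RPKM in control. For both, every Ezh2-deleted library was below every Ezh2-intact one. Col8a1 fell by a log2 fold change of −4.40 ± 0.124 (SE) in Ezh2 null against control (limma adjusted p = 1.36e-08) and −4.51 ± 0.124 in double null against Setd2 null (1.14e-08). Col7a1 fell by −2.35 ± 0.156 in Ezh2 null against control (limma adjusted p = 1.89e-06) and −1.54 ± 0.156 in double null against Setd2 null (3.43e-05), as log2 fold changes. Col8a2, the partner chain of Col8a1, was untested at 0.00345 to 0.0453 RPKM with Ezh2 deleted and 0.161 to 0.335 RPKM with Ezh2 intact.

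The 250 bases before the start of these steeply lower genes are given with the same marking, Col7a1 at chr9:108953336-108953585 on the plus strand and Col8a1 at chr16:57754738-57754987 on the minus strand, both from RefSeq on GRCm38.p6.
Col7a1: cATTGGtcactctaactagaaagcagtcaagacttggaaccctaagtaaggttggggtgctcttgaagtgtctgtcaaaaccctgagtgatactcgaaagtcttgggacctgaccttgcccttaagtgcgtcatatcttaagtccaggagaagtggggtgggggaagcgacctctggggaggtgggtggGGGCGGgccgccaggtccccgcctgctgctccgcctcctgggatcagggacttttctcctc
Col8a1: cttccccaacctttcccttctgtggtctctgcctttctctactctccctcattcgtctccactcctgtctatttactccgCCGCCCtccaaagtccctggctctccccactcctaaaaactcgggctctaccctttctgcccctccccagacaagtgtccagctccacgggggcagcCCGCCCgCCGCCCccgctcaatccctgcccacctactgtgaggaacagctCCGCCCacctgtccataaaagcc
They hold 7 and 10 CpG, close to the median window and between the values of Col3a1 and Col1a2. Neither has a TATA box match, Col8a1 has 4 GC box matches and Col7a1 has 1.

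Col18a1, a basement membrane proteoglycan core that yields endostatin, was at 43.8 and 51.8 RPKM in double null, 50.7 and 63.9 RPKM in Ezh2 null, 76.7 and 110.3 RPKM in Setd2 null, and 107 and 111 RPKM in control. It was lower in every Ezh2-deleted library and fell in Ezh2 null against control (log2 change −0.92, limma adjusted p = 0.00256) and in double null against Setd2 null (−0.93, limma adjusted p = 0.00246). Col20a1, a fibril-associated collagen, was at 1.53 and 1.54 RPKM in double null, 1.17 and 1.36 RPKM in Ezh2 null, 2.02 and 2.65 RPKM in Setd2 null, and 2.09 and 1.94 RPKM in control. The groups with and without Ezh2 were apart, but by little. Its log2 fold change of −0.42 in Ezh2 null against control was called (limma adjusted p = 0.0225) and lost without control 1 (0.11), control 2 (0.0644) or Ezh2 null 1 (0.114). That of −0.39 in double null against Setd2 null (limma adjusted p = 0.0304) was lost without double null 1 (0.105), double null 2 (0.104) or Setd2 null 2 (−0.25, 0.145) and in a fit of only the groups compared (0.0538).

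Col16a1, another fibril-associated collagen, had a different order of groups. It was at 17.6 and 19.7 RPKM in double null, 8.55 and 9.42 RPKM in Ezh2 null, 6.11 and 9.14 RPKM in Setd2 null, and 11.2 and 10.7 RPKM in control. Both double null libraries were above all others. It rose in double null against Setd2 null (log2 change 1.21 ± 0.167 SE, limma adjusted p = 0.000247), and its change in Ezh2 null against control was not called (limma adjusted p = 0.206). The effect of Ezh2 deletion with Setd2 deleted minus that with Setd2 intact (the interaction) was 1.47 ± 0.236 for Col16a1 as a difference of log2 fold changes (limma adjusted p = 0.0106). This call was lost without control 1 (adjusted p = 0.0589) or control 2 (0.0524).

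The interaction was called for 2 of the 15 tested collagens, 1 higher and 1 lower, where 2.59% of all genes tested were called (1.69% higher and 0.9% lower). The other was Col3a1 at −0.89 ± 0.189 (limma adjusted p = 0.0408), whose rise with Ezh2 deletion was smaller where Setd2 was also deleted. That call was lost without any 1 library except Ezh2 null 1 (adjusted p = 0.0813 to 0.175), with no filter (0.0602), after quantile normalization (0.0893), with a pseudocount of 0.1 (0.496) and by edgeR on recovered reads (−0.62, adjusted p = 0.83). Col7a1 had an interaction of 0.81 that was not called (limma adjusted p = 0.117), except with the replicate number as a block (0.0113). For Col1a2 it was −0.78 and for Col4a1 0.67, and neither was called (limma adjusted p = 0.0751 and 0.187). The count of 2 became 0 without control 1 or control 2, and 1 without double null 1, double null 2, Ezh2 null 2, Setd2 null 1 or Setd2 null 2.

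Double null against Ezh2 null, which measures Setd2 deletion where Ezh2 is also deleted, had 5 of 15 called, 2 higher and 3 lower, where 6.49% of all genes tested were called (3.79% higher and 2.7% lower). It shares the double null and Ezh2 null libraries with the comparisons above. Col16a1 (log2 change 0.97, limma adjusted p = 0.00729) and Col17a1 (0.76, 0.0294) were higher in double null. Col3a1 (log2 change −0.93, limma adjusted p = 0.00274), Col1a2 (−0.77, 0.0079) and Col4a5 (−0.48, 0.0445) were lower. Col16a1 and Col3a1 kept their calls without any 1 library. Col17a1 was lost without double null 2 (limma adjusted p = 0.186) or Ezh2 null 1 (0.182), Col1a2 without double null 1 (0.0509) or Ezh2 null 2 (0.056) and by edgeR on recovered reads (0.62), and Col4a5 without any 1 of the 4 libraries (0.0802 to 0.355). With the replicate number as a block 8 genes were called, adding Col1a1 (log2 change −0.81, limma adjusted p = 0.01), Col4a1 (0.49, 0.0337) and Col7a1 (0.44, 0.0164). The count was 3 without double null 1, double null 2 or Ezh2 null 2, and 2 in a fit of only the groups compared, where Col17a1 (limma adjusted p = 0.0913), Col1a2 (0.0561) and Col4a5 (0.135) were lost. Col17a1 was also lost with no filter (0.067) and Col1a2 with a pseudocount of 0.1 (0.275).

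Setd2 null against control had 0 of the 15 called by limma where 1.07% of all genes tested were called, and 0 of 36 by edgeR on recovered reads, where 0.908% were. At an unadjusted p under 0.05, which 1313 of all 11338 genes had, limma had 5, namely Col8a1 (log2 change 0.46, adjusted p = 0.158), Col16a1 (−0.49, 0.265), Col27a1 (−0.37, 0.292), Col4a6 (−0.36, 0.311) and Col7a1 (−0.37, 0.401). Double null against control, which shares its libraries with the comparisons above, had 12 of 15 called, 4 higher (Col1a1, Col1a2, Col3a1 and Col16a1) and 8 lower, where 54.2% of all genes were called (34.2% higher and 20% lower). Col1a1, Col1a2 and Col3a1 among the higher genes, and Col5a3 and Col27a1 among the lower, had to differ through the filter. Col1a1 (log2 change 0.91) was lost after quantile normalization. Col17a1 (log2 change 0.42, limma adjusted p = 0.0649) was gained with the replicate number as a block (0.00787) and in a fit of only the groups compared (0.0146).

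Several collagens under the limit of 1 RPKM were also set apart by Ezh2. The type VI genes Col6a1, Col6a2 and Col6a3 encode the chains of beaded filaments, which stromal cells mostly make. Col6a3 was at 0.796 and 0.79 RPKM in double null, 0.654 and 0.834 RPKM in Ezh2 null, 0.00279 and 0 RPKM in Setd2 null, and 0.00304 and 0 RPKM in control. In reads that is 394 to 435 per Ezh2-deleted library and at most 1 per Ezh2-intact library. Col6a1 was at 0.713 to 1.89 RPKM with Ezh2 deleted and 0 to 0.124 RPKM with Ezh2 intact, and Col6a2 at 0.245 to 0.891 RPKM and 0 to 0.0285 RPKM. Col15a1, a relative of Col18a1 that stromal basement membranes contain, was at 0.601 to 1.61 RPKM and 0 to 0.0243 RPKM.

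Col6a4, a further type VI chain, was at 3.24 and 3.28 RPKM in double null, 0.415 and 0.354 RPKM in Ezh2 null, 0.212 and 0.103 RPKM in Setd2 null, and 0.0882 and 0.138 RPKM in control. Both double null libraries stood far above the other 6. With genes kept from a mean of 0.1 RPKM, its interaction was 1.57 (limma adjusted p = 0.000824), and its log2 fold change was 1.62 in double null against Ezh2 null (4.68e-05). In that fit 30 collagens were tested, and 22 were called in Ezh2 null against control, 10 higher and 12 lower, where 53.9% of genes were called (34.8% higher and 19.1% lower). The added higher genes were Col5a1, Col5a2, Col6a1, Col6a2, Col6a3, Col6a4 and Col15a1, and the added lower ones Col4a3, Col4a4 and Col8a2.

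Calls with these low genes included were as follows. Ezh2 null against control had 27 of 42 with no filter (42.2% of all genes) and 29 of 36 in edgeR on recovered reads (51.1%). Double null against Setd2 null had 22 of 30 from 0.1 RPKM (52.6%), 24 of 42 with no filter (41.1%) and 24 of 36 in edgeR (49.5%). Double null against control had 21 of 30 (51.6%), 23 of 42 (40.1%) and 24 of 36 (48.9%) in the same fits. Genes detected mainly in the Ezh2-deleted or mainly in the Ezh2-intact libraries enter these counts, so they describe the genes kept and no more. Double null against Ezh2 null had 11 of 30 (7.2%), 11 of 42 (5.57%) and 7 of 36 (5.08%), and the interaction had 3 of 30 from 0.1 RPKM (2.93%) and 2 of 36 in edgeR (1.51%).

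**Figure D4:**
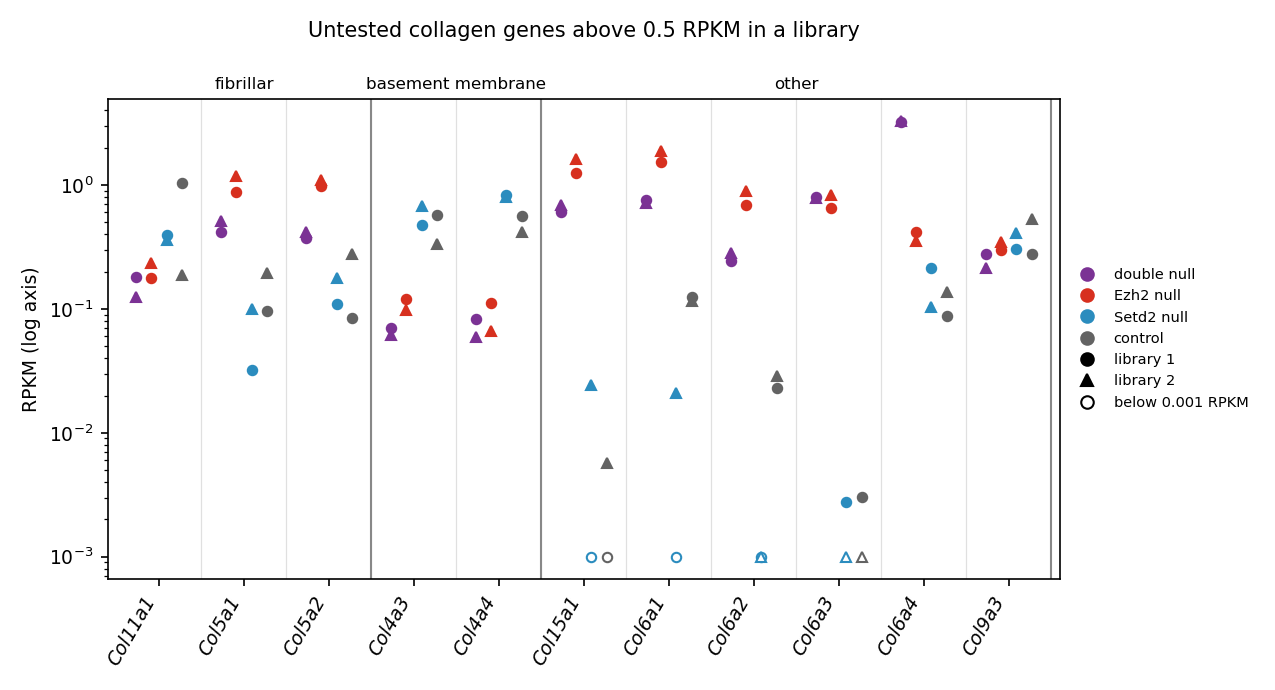
RPKM (log axis) of the 11 untested collagen genes above 0.5 RPKM in some library, with groups ordered as double null, Ezh2 null, Setd2 null and control and open symbols for values below 0.001 RPKM. Col6a4 is highest in double null, at 3.24 and 3.28 RPKM, and Col6a3 has at most 0.00304 RPKM in the Ezh2-intact libraries.

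Genes that modify, fold, secrete, cut, cross-link and bind collagen were counted from a list of 43, of which 28 were tested. In Ezh2 null against control 6 rose and 12 fell, with a median log2 fold change of −0.27, where 56.6% of all genes were called, 36.1% higher and 20.5% lower. In double null against Setd2 null 6 rose and 13 fell, with a median of −0.34, where 55% were called, 35.6% higher and 19.4% lower. P3h2 and Loxl4 passed the limit of 1 RPKM only through the Ezh2-deleted libraries, and Fkbp10, Loxl2 and Loxl3 only through the Ezh2-intact ones. The mean levels of these 5 therefore had to differ between the Ezh2 states, so their values below are a description. Of the 9 tested prolyl hydroxylation genes 2 rose and 3 fell in each. The hydroxylase catalytic chains P4ha1 and P4ha2 were at 15.1 to 22.8 RPKM and 22 to 39.6 RPKM with Ezh2 deleted, against 56.7 to 78.3 RPKM and 86.1 to 109.6 RPKM with Ezh2 intact. Their log2 fold changes in Ezh2 null against control were −1.93 and −1.87 (limma adjusted p = 1.27e-06 and 1.34e-06). Their partner chain P4hb rose (log2 change 0.56, limma adjusted p = 0.0044). The prolyl hydroxylase P3h2 was at 3.27 to 3.7 RPKM with Ezh2 deleted and 0.0135 to 0.117 RPKM with Ezh2 intact.

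Of the 4 tested genes of lysyl hydroxylation and glycosylation, the hydroxylase Plod2 (log2 change −1.80, limma adjusted p = 2.81e-05) and the galactosyltransferase Colgalt1 (−0.60, 0.00349) fell in Ezh2 null against control. Among 7 of folding and secretion 2 rose and 3 fell, where 36.1% of all genes were higher and 20.5% lower. Tmem38b was 1 of the 2 that rose (log2 change 0.79, limma adjusted p = 0.000967). Of the 3 that fell, Fkbp10 passed the filter only through Ezh2-intact libraries. It was at 0.263 to 0.646 RPKM with Ezh2 deleted and 1.27 to 2.66 RPKM with Ezh2 intact. The collagen chaperone Serpinh1 was at 23.3 to 28.8 RPKM with Ezh2 deleted and 89.8 to 107 RPKM with Ezh2 intact (log2 change −1.99, limma adjusted p = 2.41e-06), and the coat protein Sec23a fell with it (−1.26, 2.6e-05). The propeptide protease Bmp1 fell (log2 change −0.91, limma adjusted p = 0.00123). Its enhancer Pcolce was called at 0.52 (0.0471), but not with the replicate number as a block (0.0614), by edgeR on recovered reads (0.204), with a pseudocount of 0.1 (0.0532), from 0.1 RPKM (0.0548), with no filter (0.0981), after quantile normalization (0.31, 0.271), without Ezh2 null 2 (0.35, 0.234) or without control 2 (0.30, 0.309). The 3 tested cross-linking genes, Loxl2, Loxl3 and Loxl4, each passed the filter through 1 Ezh2 state only, so their calls are not given. The lysyl oxidase relative Loxl2 was at 0.17 to 0.369 RPKM with Ezh2 deleted and 1.37 to 3.24 RPKM with Ezh2 intact, and Loxl4 at 1.94 to 2.65 RPKM and 0.334 to 0.586 RPKM. Loxl3 overlapped, at 0.18 to 1.95 RPKM with Ezh2 deleted and 1.67 to 2.96 RPKM with Ezh2 intact. Of the 3 tested receptors both chains of the collagen-binding integrin, Itga2 (log2 change −3.67, limma adjusted p = 4.02e-08) and Itgb1 (−2.06, 8.14e-06), fell. The third, Ddr1, ran the other way, at 41.6 to 60.9 RPKM with Ezh2 deleted and 26.8 to 41.2 RPKM with Ezh2 intact. It was not called in Ezh2 null against control but rose in double null against Setd2 null (log2 change 0.73, limma adjusted p = 0.0131). Without double null 2 or Setd2 null 1 that change was 0.52 and the call was lost.

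Double null against Ezh2 null had 2 of the 28 called, P4ha1 (log2 change 0.53, limma adjusted p = 0.0294) and P4ha2 (0.71, 0.00615), both higher in double null, where 6.49% of all genes were called. P4ha1 was lost without any 1 of the 4 libraries (limma adjusted p = 0.13 to 0.176), and P4ha2 without double null 2 (0.0651) or Ezh2 null 1 (0.0515), so that the count was 0 without either of those 2 libraries and 1 without double null 1 or Ezh2 null 2. Setd2 null against control had 0 of the 28 called by limma and 0 by edgeR on recovered reads, with 5 at an unadjusted p under 0.05 in limma, where 1313 of all 11338 genes were.

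In the count table, which asks whether Ezh2 K735R changes expression in PtenPC-/- cells, 26 of 33 collagens were tested with edgeR's quasi-likelihood test and 0 were called, where 0.00757% of 13203 genes tested were called. At an unadjusted p under 0.05 there were 6 in edgeR, where 1220 of all 13203 genes were, and DESeq2 called 1 of 32, where it called 2% of all genes. The same 4 genes led per kilobase as in the Ezh2-intact libraries of the RPKM table. Col18a1 averaged 143 CPM (counts scaled to library size) per kilobase in Ezh2 K735R and 162 in wild-type Ezh2, Col8a1 98.7 and 65.9, and Col7a1 51.2 and 70.9. Col4a1 came next at 28.8 and 25.8 CPM per kilobase. Col18a1 was at 1002 and 1092 CPM in Ezh2 K735R and 973 and 1384 CPM in wild-type Ezh2, and Col17a1 at 746 and 601 CPM and at 799 and 406 CPM. Col7a1 was at 449.5 and 504 CPM in Ezh2 K735R, against 621 and 698 CPM in wild-type Ezh2, and Col8a1 at 464 and 545 CPM, against 301 and 373 CPM. The log2 fold changes of Col7a1 and Col8a1, −0.47 and 0.58, did not pass (edgeR adjusted p = 0.423 for both).

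Col4a5 was at 115 and 114 CPM in Ezh2 K735R, against 131 and 156 CPM in wild-type Ezh2 (log2 change −0.32, edgeR adjusted p = 0.511), and Col4a6 at 11.9 and 13.4 CPM, against 20.5 and 20.3 CPM (−0.69, 0.344). Col3a1, at 0.201 and 0.831 CPM in Ezh2 K735R and 1.37 and 4.36 CPM in wild-type Ezh2, did not pass either (log2 change −2.47, edgeR adjusted p = 0.522), and Col1a2 had 0 counts in all 4 libraries. Col11a1, a minor fibrillar chain, was at 1.91 and 2.42 CPM in Ezh2 K735R and 5.07 and 19.6 CPM in wild-type Ezh2. Its log2 fold change was −2.51 in edgeR (adjusted p = 0.443) and −2.50 in DESeq2, which called it (adjusted p = 0.00565). The wild-type Ezh2 libraries differed from each other by more than the Ezh2 K735R ones in Col11a1, Col17a1 and Col18a1. Without wild-type Ezh2 1, edgeR called 6 collagens, where 4.77% of all genes were called, and without wild-type Ezh2 2 it called 7, where 11.8% were, with Col7a1 in both cases (adjusted p = 0.00987 and 0.0259) and Col8a1 in the second (0.00268). The single library left is assumed to vary like the Ezh2 K735R ones.

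**Figure D5:**
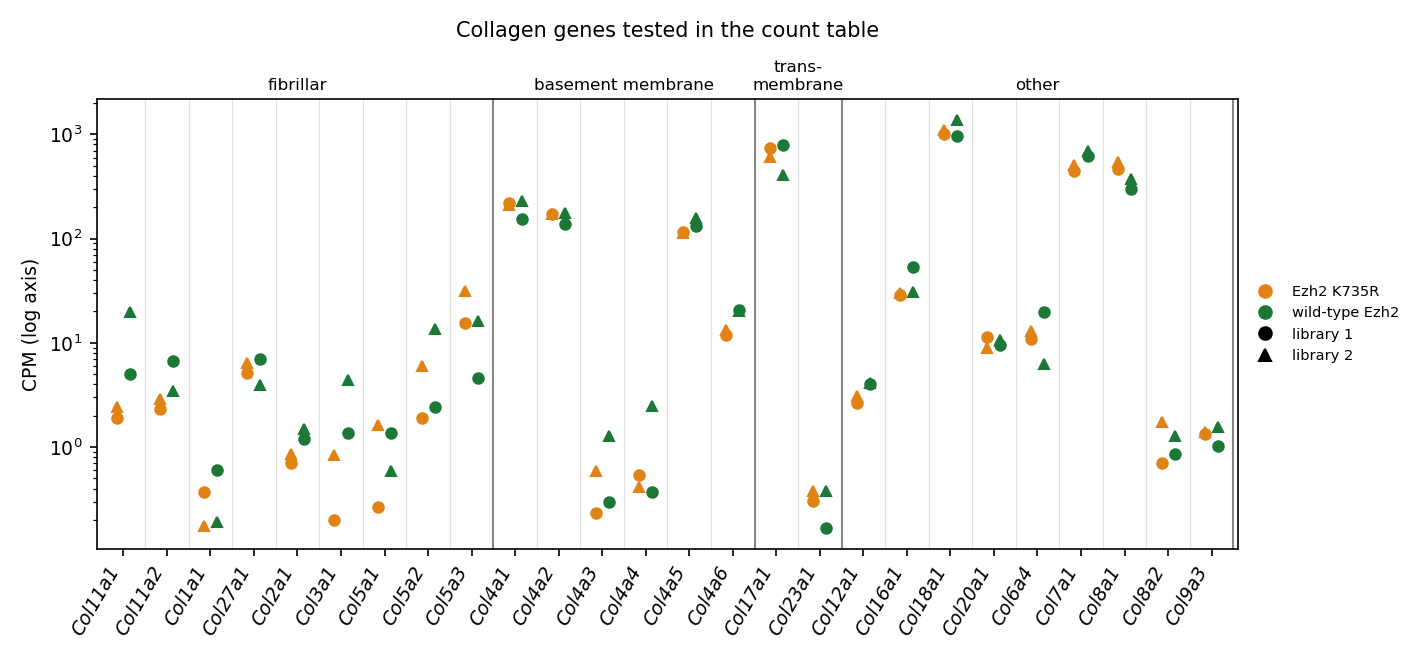
CPM (log axis) of the 26 tested collagen genes in each Ezh2 K735R and wild-type Ezh2 library of the count table. By edgeR 0 of the 26 were called, Col7a1 and Col8a1 included.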

How the data were processed

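Per the submitters' processing notes, the build was mm10 and the tools Bowtie, RSEM, BWA and SICER (K735R samples: Bowtie, RSEM). Their versions and the strandedness of counting are not stated in the labels. The deposited RPKM values are 1 column per library, and the deposited counts are whole numbers, a unit taken from the values. Low RPKM values were whole multiples of 1 read, so reads per gene were recovered. Of 13748 genes above 0 in each library, 13744 (99.97%) gave whole reads to within 0.01, and these reads were tested as an alternative.

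The 11338 genes averaging 1 RPKM or more were analysed as log2(RPKM + 1), and all 4 groups fitted together in limma 3.58.1 with trended, robust moderation. Counts were tested with edgeR 4.0.16 (TMM, its low-count filter, robust quasi-likelihood, 13203 genes), and CPM used TMM-scaled library sizes. P-values were two-sided, Benjamini-Hochberg adjusted over all genes of a comparison and called at 0.05. The steps were tested on simulated data. Promoter windows of 250 bases before the start came from RefSeq (GRCm38.p6).

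The members, gene lists and tests were chosen with earlier results of these data known. Values in every library are given for tested collagens called in a comparison, ranges for the rest, and up to 4 genes of each related list by the smallest p. Libraries with the same number deviated together strongly in Ezh2 null and double null (correlation of deviations from group means 0.93). In the other pairs of RPKM groups the correlation was 0.11 to 0.36. The labels do not state that the numbers pair libraries, so the main fits carry no block. The fit with the replicate number as a block is an alternative, and it changed some calls. Others were quantile normalization, other filters, a pseudocount of 0.1, DESeq2 1.42.0, other scalings of the counts, fits of only the groups compared and leaving out each library.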

Additional observations from a re-analysis of the deposited data

Results flagged for a closer look

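Col16a1, Col3a1 and Col6a4 drew a closer look because the effect of Ezh2 deletion differed with and without Setd2 by a test of the difference itself. The interaction (double null against Setd2 null minus Ezh2 null against control) was 1.47 for Col16a1 and −0.89 for Col3a1 as differences of log2 fold changes (limma adjusted p = 0.0106 and 0.0408). For Col6a4 it was 1.57 with genes kept from a mean of 0.1 RPKM (limma adjusted p = 0.000824), and edgeR on recovered reads also called it (2.60, adjusted p = 0.0302). Col3a1, which passed the limit of 1 RPKM only through the Ezh2-deleted libraries, kept its call in 1 of 8 fits with a library left out and lost it in edgeR on recovered reads (adjusted p = 0.83), with a pseudocount of 0.1 (0.496), with no filter (0.0602) and after quantile normalization (0.0893). Col16a1 lost its call without control 1 (0.0589) or control 2 (0.0524).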

How the results depend on the processing

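Lower filters, which test more genes, and the count test, which also differs in its normalization, called more collagens. Ezh2 null against control had 22 with a mean of 0.1 RPKM, 27 with no filter and 29 in edgeR on recovered reads, against 12, double null against Setd2 null had 22, 24 and 24, against 12, and double null against control had 21, 23 and 24, against 12. All 12 called genes of each of these 3 comparisons remained called in those 3 fits. Double null against Ezh2 null had 11 with either lower filter, 2 in a fit of only the groups compared and 8 with the replicate block, against 5, and the interaction had 1 with a pseudocount of 0.1 and 1 after quantile normalization, against 2. DESeq2 called 1 collagen in Ezh2 K735R against wild-type Ezh2, against 0 in edgeR. Leaving out each library in turn gave 10 to 11 calls in Ezh2 null against control, 11 to 12 in double null against Setd2 null, 12 in double null against control, 3 to 4 in double null against Ezh2 null, 0 to 2 in the interaction, 0 in Setd2 null against control and 0 to 7 in Ezh2 K735R against wild-type Ezh2. Signs turned for Col17a1 in double null against Setd2 null (−0.04 in edgeR on recovered reads, and −0.04 to 0.34 with a library left out) and in Ezh2 K735R against wild-type Ezh2 (−0.23 to 0.73), and for Col4a1 in Ezh2 K735R against wild-type Ezh2 (−0.10 to 0.49) and Setd2 null against control (−0.37 to 0.01). The causes were not tested. The replicate block gave 14, 13, 13 and 3 calls in Ezh2 null against control, double null against Setd2 null, double null against control and the interaction, and 0 in Setd2 null against control, and it changed no collagen call other than those given with the results. In the count table same-numbered libraries had a correlation of deviations of 0.1, and the block gave 0 calls. With 2 pools a group, and few reads for the low collagens, small differences were not detectable.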
